A study of Mus musculus with 10 samples.

Results

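Integrins, laminins and the proteoglycans and glycoproteins of the extracellular matrix were examined as a family of 55 genes among the 53801 genes counted in AtT20 cells. The members were taken by gene symbol, with earlier results of these data known: 13 integrin alpha chains, 9 integrin beta chains, 11 laminin chains (5 alpha, 3 beta and 3 gamma), 4 syndecans, 6 glypicans, 4 further basement membrane proteins and 8 other matrix proteins, including *Lrrc17*. Of these, 29 had enough reads to be tested, among 14336 genes tested in all. AtT20 is a mouse cell line derived from a tumour of pituitary corticotrophs, the cells that make the hormone precursor Pomc. One AtT20 line, stably transduced with a lentivirus carrying *Creb3l1*-shRNA1, a short hairpin RNA against the transcription factor Creb3l1, was compared with a line transduced in the same way with a non-targeting shRNA. Both lines were grown in the same serum-containing medium without further treatment, and each gave 5 libraries. Since each hairpin is represented by 1 stable line, an effect of the knockdown and a difference between the lines cannot be told apart. The study's methods call its replicates biological, and no label says how the 5 samples of a line were separated, so the p-values measure the spread between these libraries of 1 line each.

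Integrins are paired receptors, made of an alpha and a beta chain, that span the plasma membrane and tie the matrix outside the cell to the actin cytoskeleton. Laminins are trimers of an alpha, a beta and a gamma chain and are the main glycoproteins of basement membranes, where nidogens, perlecan and agrin join them. Syndecans and glypicans carry heparan sulfate chains at the cell surface, and these chains bind growth factors and matrix proteins.

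The libraries held between 17420698 and 22205107 reads counted on genes, and the members took between 0.113% and 0.123% of them. *Creb3l1* itself gave 3531 to 3864 normalised counts in the non-targeting libraries and 1014 to 1159 in the knockdown libraries. Here and below, a normalised count is the read count divided by the TMM effective size of the library and multiplied by the mean effective size. Of 8 corticotroph markers, 7 were tested, *Avpr1b* had no read and *Crhr1* was low (29.2 and 26.9 normalised counts). *Pomc* (log2 fold change −0.51), *Pcsk1* (−0.46) and *Tbx19* (−0.27) fell and *Neurod1* (0.62) and *Pitx1* (0.36) rose. The counts of *Pitx1* overlapped between the lines. By quantitative PCR the study saw *Pomc* mRNA unchanged in its *Creb3l1* knockdown lines. None of 9 listed markers of other pituitary hormone cells had enough reads to be tested. *Nr5a1*, counted among the 8 although it is a gonadotroph factor, had 78.7 and 62.9 normalised counts in the non-targeting and knockdown lines. In the third non-targeting library the non-coding RNA gene *Gm42418* took 4.13% of the reads. Among pairs of knockdown libraries, those with library 2 differed most in their read counts. Their chi-square per degree of freedom was 6.15 to 10.6, against 2.44 to 3.68 for the other pairs. Among non-targeting pairs, those with library 3 gave 75.2 to 85.9 on this measure, against 1.91 to 3.20 for the other pairs. The causes were not tested.

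Promoters of members were read from RefSeq, as the 250 bases before an annotated transcription start on GRCm38.p6. These windows were at hand for 37 of the 55 members. Those of the member that rose most (*Lrrc17*), of the most abundant laminin chain (*Lama5*), of the member that fell most (*Lamb3*) and of the integrin beta chain that fell (*Itgb5*) follow, 5′ to 3′ on the strand of the gene. Capitals mark the word TGACG, the core of the cyclic AMP response element. The windows lie at chr5:21543277-21543526 (plus strand), chr2:180225860-180226109 (minus strand), chr1:193301744-193301993 (plus strand) and chr16:33829415-33829664 (plus strand). The *Lamb3* window is the first of 2 at hand for that gene, whose annotated span begins upstream of both, at 193207699.
Lrrc17: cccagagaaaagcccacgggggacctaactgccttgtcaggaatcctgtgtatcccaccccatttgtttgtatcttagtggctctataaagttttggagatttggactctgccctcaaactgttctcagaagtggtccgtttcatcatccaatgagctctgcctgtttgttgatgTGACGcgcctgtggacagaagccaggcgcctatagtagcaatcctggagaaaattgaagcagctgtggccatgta
Lama5: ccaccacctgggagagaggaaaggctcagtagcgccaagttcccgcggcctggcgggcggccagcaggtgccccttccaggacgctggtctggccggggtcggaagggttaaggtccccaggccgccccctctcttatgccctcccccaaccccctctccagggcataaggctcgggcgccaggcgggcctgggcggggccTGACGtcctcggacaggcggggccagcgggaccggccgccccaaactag
Lamb3: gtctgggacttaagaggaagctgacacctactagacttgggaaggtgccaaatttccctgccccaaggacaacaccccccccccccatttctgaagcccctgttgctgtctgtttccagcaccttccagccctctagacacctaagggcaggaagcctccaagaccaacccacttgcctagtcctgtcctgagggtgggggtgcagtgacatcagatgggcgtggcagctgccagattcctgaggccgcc
Itgb5: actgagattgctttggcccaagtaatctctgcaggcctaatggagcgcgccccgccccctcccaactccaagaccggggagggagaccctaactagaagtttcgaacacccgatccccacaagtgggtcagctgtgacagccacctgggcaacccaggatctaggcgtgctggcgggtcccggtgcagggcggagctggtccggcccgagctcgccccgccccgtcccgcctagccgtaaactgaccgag
TGACG began 75 bases before the start of *Lrrc17* and 49 bases before that of *Lama5*, and neither the *Lamb3* nor the *Itgb5* window held it. On either strand it stood in 17.8% of the 32851 windows of all genes and in those of 6 of the 37 members. Among the 20 tested members with a window, 5 held it, which were *Itga9*, *Itgb1*, *Lama5*, *Lrrc17* and *Sdc3*. GACGTG, a G-box core that can overlap TGACG, stood in 5.20% of all windows and in that of none of the 37 members. Such matches describe the letters of these windows alone.

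Between the *Creb3l1* knockdown and non-targeting lines, 14 of the 29 tested members differed (edgeR adjusted p under 0.01), of which 7 rose and 7 fell in the knockdown line. Of all genes tested, 40.7% passed the same threshold, 20.6% higher and 20.1% lower, against 48.3% of the members. The members that rose were *Lrrc17*, *Itgb8*, *Hspg2*, *Sdc2*, *Lama5*, *Itga9* and *Sdc3*, and those that fell were *Lamb3*, *Itga2b*, *Lama4*, *Itgb5*, *Itga3*, *Sdc1* and *Gpc1*. No overlap of normalised counts between the lines was seen in 13 of the 29 tested members (44.8%), all of them among the 14, and in 36.0% of all genes tested. A change of at least 1.5-fold was reached by 6 of the 29 tested members, 2 higher and 4 lower. Among all genes it was reached by 1108 of 14336 (7.73%, of which 3.28% higher and 4.45% lower). The median log2 fold change of the tested members was 0.012 and that of all tested genes −0.0025. The medians of its size were 0.30 and 0.15. They include members that did not pass and had wide errors, such as *Fn1* (0.47, SE 0.41). Genes of like counts were not compared. As these are bulk libraries, fewer cells that express a gene and less of its RNA per cell cannot be told apart.

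**Figure D1:**
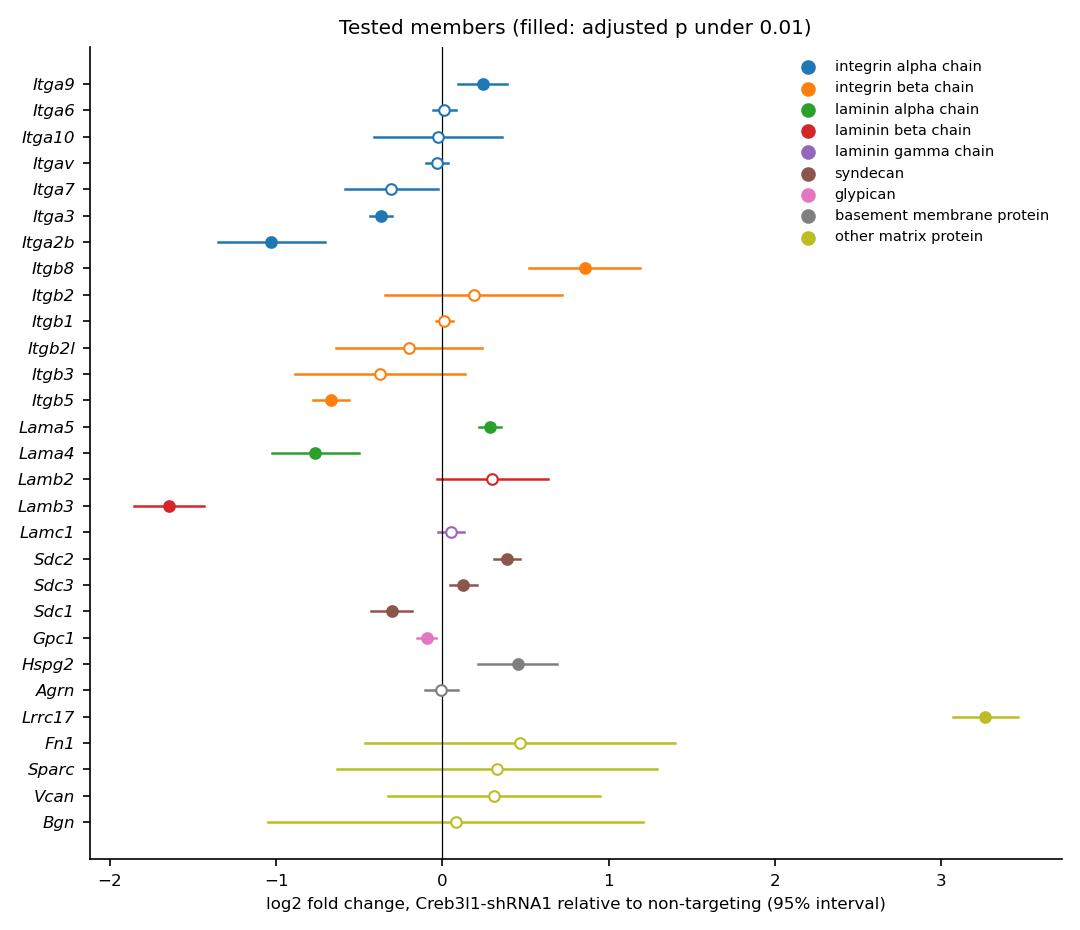
Log2 fold change (x axis, *Creb3l1*-shRNA1 relative to non-targeting, n = 5 libraries per line) of the 29 tested members, with 95% intervals, coloured by class. Filled points passed an adjusted p of 0.01; *Lrrc17* lies at 3.26 and *Lamb3* at −1.64, while the interval of *Itgb1* runs from −0.04 to 0.06.

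Of the integrin alpha chains, 7 of 13 were tested, 2 fell and 1 rose. Per exon length the laminin receptor chain *Itga3* was the most abundant, at an RPKM (reads per kilobase of exon, scaled to library size and computed here from the counts) of 17.2 ± 0.454 in the non-targeting line (SD, n = 5), followed by *Itga6* at 9.97 ± 0.571 and *Itgav* at 7.75 ± 0.147. *Itga3* (ENSMUSG00000001507, chromosome 11, 95044474 to 95076801, minus strand) fell from 1955 to 2065 normalised counts in the non-targeting libraries to 1477 to 1624 in the knockdown libraries, a log2 fold change of −0.37 ± 0.03 (SE, edgeR adjusted p = 1.53e-12). Every knockdown library lay below every non-targeting library.

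*Itga6* (ENSMUSG00000027111, chromosome 2, 71745616 to 71858416, plus strand), the other widely used laminin receptor chain, had the highest normalised count of the alpha chains when both lines are averaged. It gave 1814, 1939, 1899.9, 1669 and 1806 normalised counts in non-targeting libraries 1 to 5, and 1895, 1833, 1802, 1805 and 1846 in knockdown libraries 1 to 5. The lines overlapped, and the log2 difference of 0.01 ± 0.03 (SE, edgeR adjusted p = 0.834) had a 95% interval from −0.06 to 0.08. *Itgav*, which pairs with several beta chains and binds RGD motifs in matrix proteins, differed by −0.03 on the log2 scale, with an interval from −0.10 to 0.03. When the fit was corrected for the GC content and length of transcripts, a setting added after the data were seen, *Itgav* passed the threshold at −0.13 (edgeR adjusted p = 1.72e-04).

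*Itga2b* (ENSMUSG00000034664, chromosome 11, 102453297 to 102470122, minus strand), the alpha chain of the platelet fibrinogen receptor, was scarce and fell. Its normalised counts were 65.4, 81.6, 67.2, 78.9 and 52.8 in the non-targeting libraries and 38.6, 35.3, 35.1, 29.4 and 30.9 in the knockdown libraries. All 5 knockdown libraries were below the lowest non-targeting library, and the log2 fold change was −1.03 ± 0.16 (SE, edgeR adjusted p = 6.87e-07). *Itgb3*, its usual partner, was scarce, at 21.8 ± 7.15 and 16.8 ± 3.44 normalised counts (SD, n = 5 each), and its log2 difference of −0.38 (95% interval −0.89 to 0.14, adjusted p = 0.223) did not pass. *Itga9*, a receptor chain for tenascin and osteopontin, rose from 242 ± 16.7 to 286 ± 14.6 normalised counts (SD, n = 5 each), by 0.24 ± 0.07 on the log2 scale (SE, edgeR adjusted p = 0.00486). This call was lost without any one of 4 libraries (non-targeting 4 or 5, knockdown 1 or 3), with an adjusted p of at most 0.0362 over all settings. The laminin receptor chain *Itga7* (70.0 against 56.8 normalised counts, log2 difference −0.31, adjusted p = 0.0607) and the collagen receptor chain *Itga10* (35.0 against 33.8) did not pass, and 33.5% of the exon bases of *Itga10* are shared with an annotated gene on the same strand, *Gm42957*.

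Of the integrin beta chains, 6 of 9 were tested, and 1 rose while 1 fell. *Itgb1* (ENSMUSG00000025809, chromosome 8, 128685654 to 128733200, plus strand), the shared partner of most alpha chains found here, gave 7595, 7333, 7410.0, 7218 and 7572 normalised counts in the non-targeting libraries. In the knockdown libraries it gave 7407, 7423, 7262, 7677 and 7675. The lines overlapped, and the log2 difference was 0.01 ± 0.02 (SE, 95% interval −0.04 to 0.06, edgeR adjusted p = 0.711).

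*Itgb5* and *Itgb8* encode alternative partners of the αv chain, the former in a vitronectin receptor and the latter in a receptor that activates latent TGF-beta. *Itgb5* (ENSMUSG00000022817, chromosome 16, 33829665 to 33949338, plus strand) gave 744, 735, 677, 728 and 679 normalised counts in the non-targeting libraries and 453, 411, 501, 410.3 and 466 in the knockdown libraries. It fell in every knockdown library below the lowest non-targeting value, by a log2 fold change of −0.67 ± 0.05 (SE, edgeR adjusted p = 5.34e-14).

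*Itgb8* (ENSMUSG00000025321, chromosome 12, 119158022 to 119238802, minus strand) gave 40.2, 42.4, 20.8, 35.7 and 46.2 normalised counts in the non-targeting libraries and 73.5, 69.6, 52.1, 73.9 and 70.0 in the knockdown libraries. It rose by 0.86 ± 0.17 on the log2 scale (SE, edgeR adjusted p = 3.09e-05), and the lowest knockdown library, replicate 3, still exceeded the highest non-targeting one. Per exon length *Itgb8* remained far below *Itgb5* in both lines, at an RPKM of 0.302 against 6.22 in the knockdown line. The leukocyte chain *Itgb2* and its relative *Itgb2l* had 11.3 to 31.1 normalised counts in any library and did not pass.

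Of the laminins, *Lama5*, *Lamb3*, *Lamb2*, *Lamc1* and *Lama4* were tested, and 6 chains were not. *Lama5* (ENSMUSG00000015647, chromosome 2, 180176373 to 180225859, minus strand), an alpha chain of epithelial and endothelial basement membranes, gave 1634, 1535, 1519.6, 1455 and 1597 normalised counts in the non-targeting libraries and 1872, 1925, 1936, 1822 and 1898 in the knockdown libraries. It rose by 0.29 ± 0.03 on the log2 scale (SE, edgeR adjusted p = 1.27e-09) without overlap. *Lamc1*, the gamma chain of most laminins, differed by 0.05 (95% interval −0.03 to 0.13, adjusted p = 0.301) between 938 ± 30.2 and 971 ± 23.8 normalised counts (SD, n = 5 each).

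*Lamb3* (ENSMUSG00000026639, chromosome 1, 193207699 to 193343878, plus strand) fell most of all tested members. This beta chain belongs to laminin-332, the laminin of epithelial hemidesmosomes. Its normalised counts were 199, 169.5, 163, 182 and 199.9 in the non-targeting libraries and 63.4, 57.8, 53.2, 56.9 and 60.9 in the knockdown libraries, a log2 fold change of −1.64 ± 0.10 (SE, edgeR adjusted p = 7.21e-17). No knockdown library came near the lowest non-targeting value. *Lama3*, the alpha chain of that trimer, was too scarce to test, with 12 reads in the 5 non-targeting libraries and 3 in the knockdown libraries. *Lamb2*, a beta chain of neuromuscular and vascular laminins, had 40.7 ± 6.42 and 49.9 ± 8.17 normalised counts (SD, n = 5 each), and its log2 difference of 0.30 (95% interval −0.04 to 0.64) did not pass at an adjusted p of 0.132.

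*Lama4* (ENSMUSG00000019846, chromosome 10, 38965515 to 39110188, plus strand), an alpha chain of vascular basement membranes, gave 112, 93.3, 99.0, 90.1 and 80.1 normalised counts in the non-targeting libraries and 50.5, 58.9, 66.0, 50.2 and 53.6 in the knockdown libraries. The lines did not overlap, and it fell by 0.77 on the log2 scale (SE 0.13, edgeR adjusted p = 3.60e-06). *Lama2*, the muscle laminin alpha chain, had no read in any non-targeting library and 19 in the knockdown libraries. Against a limit of 3 counts over the non-targeting group, the 19 reads were 6.04-fold higher, with no allowance for their own counting error. *Lama2* did not pass the filter on low counts and was called only when that filter was left out.

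**Figure D2:**
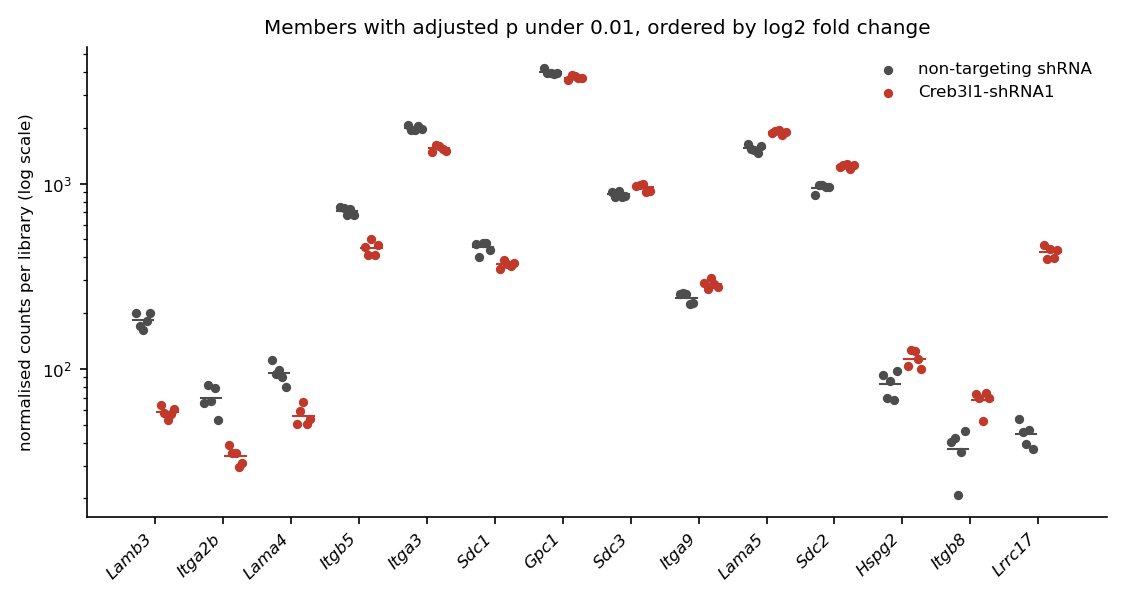
Normalised counts (log axis) of the 14 members with an adjusted p under 0.01, 1 point per library (n = 5 per line) with the mean as a bar, ordered from the largest fall to the largest rise. The lines are separate for 13 genes and overlap for *Sdc3*; *Lrrc17* moves from 36.8 to 53.3 up to 393 to 466.

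Of the 4 syndecans, 3 were tested and all 3 passed, in both directions. *Sdc2* (ENSMUSG00000022261, chromosome 15, 32920723 to 33034935, plus strand) gave 872, 985, 979, 961 and 961 normalised counts in the non-targeting libraries and 1237, 1265, 1275, 1202 and 1254 in the knockdown libraries. It rose by 0.39 ± 0.04 on the log2 scale (SE, edgeR adjusted p = 2.27e-11), and the lines did not overlap. *Sdc1*, the epithelial syndecan, fell from 453 ± 34.3 to 367 ± 15.5 normalised counts (SD, n = 5 each), by 0.30 on the log2 scale (edgeR adjusted p = 5.48e-05). The neural syndecan *Sdc3* rose by 0.13 on the log2 scale (edgeR adjusted p = 0.00926), from 847 to 913 up to 903 to 998, so that the lines overlapped. Its call was lost with DESeq2 and without any one of 6 libraries (non-targeting 2, 4 or 5, knockdown 1, 2 or 3). *Sdc4* had 21 reads in the non-targeting and 5 in the knockdown libraries and was not tested.

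Among the glypicans, which are anchored to the membrane by a lipid, only *Gpc1* (ENSMUSG00000034220, chromosome 1, 92831645 to 92860779, plus strand) was expressed enough to be tested. It gave 4193, 3942, 3946, 3918 and 3961 normalised counts in the non-targeting libraries and 3628, 3867, 3791, 3703 and 3707 in the knockdown libraries. The lines did not overlap, and *Gpc1* fell by 0.09 on the log2 scale (SE 0.03, edgeR adjusted p = 0.00367). The call was lost when libraries were scaled by their totals and without any one of 3 libraries (non-targeting 1, knockdown 1 or 5). The gene *Ankmy1* on the opposite strand covers 18.9% of the exon bases of *Gpc1*, and whether the reads were counted by strand is not given in the sources used here. *Gpc2*, *Gpc3*, *Gpc4* and *Gpc5* had no read in any library, and *Gpc6* had 1.

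Of the basement membrane proteoglycans, *Hspg2* (perlecan) rose from 82.6 ± 13.3 to 113 ± 11.8 normalised counts (SD, n = 5 each), by 0.45 ± 0.12 on the log2 scale (SE, edgeR adjusted p = 0.00125). Without non-targeting library 1 and knockdown libraries 3 and 4, a setting added after the data were seen, it did not pass (adjusted p = 0.0121). *Agrn*, best known for clustering acetylcholine receptors at the neuromuscular junction, had 605 ± 41.8 and 604 ± 22.4, a log2 difference of −0.01 with a 95% interval from −0.11 to 0.09. The nidogens, which link laminin networks to collagen IV, were too scarce to test, with 40 and 53 reads for *Nid1* and 4 and 8 for *Nid2*.

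*Lrrc17* (ENSMUSG00000039883, chromosome 5, 21543559 to 21575904, plus strand) encodes a secreted leucine-rich repeat protein known from bone, and it rose most of all members. Its normalised counts were 53.3, 45.6, 39.1, 46.9 and 36.8 in the non-targeting libraries and 466, 393, 441, 399 and 439.8 in the knockdown libraries. The log2 fold change was 3.26 ± 0.10 (SE, 95% interval 3.07 to 3.46, edgeR adjusted p = 5.17e-28), that is 9.61-fold. Per exon length this took it from an RPKM of 0.606 ± 0.0900 to 5.85 ± 0.423 (SD, n = 5 each), close to *Itgb5* and *Lamc1* in the knockdown line (6.22 and 5.79). The gene *Fbxl13* on the opposite strand covers 4.46% of its exon bases and did not have enough reads to be tested.

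The make-up of each class, taken as the share of each chain in the summed level per exon length, is described without a test. A share depends on the other chains of its class as well as on the chain itself. *Itga3* held 45.4% ± 1.29 of the integrin alpha level in the non-targeting line and 39.5% ± 1.36 in the knockdown line (SD, n = 5 each), and the shares of *Itga6* (26.3% and 29.6%) and *Itgav* (20.4% and 22.4%) were larger in the knockdown line. *Itgb1* held 89.2% and 92.5% of the beta level and *Itgb5* 9.84% and 6.37%. *Lama5* made up 94.4% and 97.1% of the laminin alpha level and *Lama4* 5.45% and 2.70%.

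Among the 7 classes the laminin beta chains had the lowest ratio of summed levels. Their sum was an RPKM of 1.75 ± 0.107 and 0.880 ± 0.0632 (SD, n = 5 each), a ratio of 0.503, while the ratios of the alpha and gamma sums were 1.19 and 1.03. *Lamb3* held 77.9% ± 3.95 of it in the non-targeting and 49.6% ± 3.28 in the knockdown line, and *Lamb2* 19.0% ± 3.47 and 45.8% ± 4.27. In both lines the beta sum was lower than the alpha sum (7.11 and 8.43) and the gamma sum (5.64 and 5.82) on the same scale. Among the syndecans, *Sdc2* held 50.3% and 58.0%, *Sdc3* 27.2% and 26.1%, and *Sdc1* 22.2% and 15.8%.

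**Figure D3:**
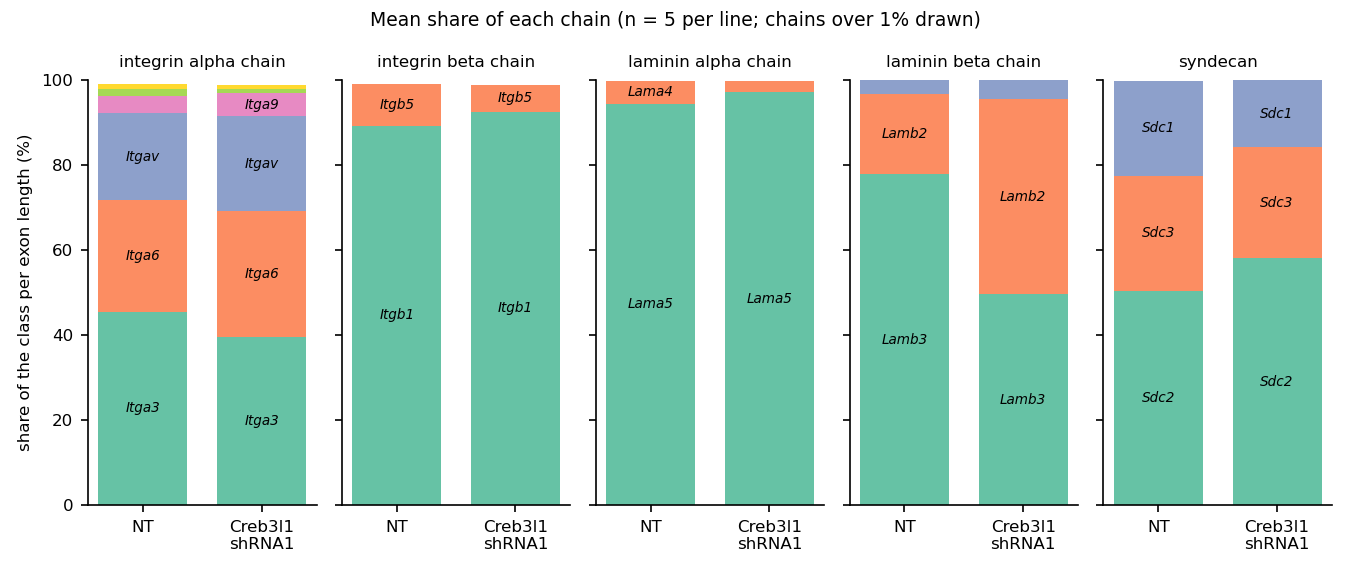
Share of each chain (y axis, percent of the class's summed level per exon length, mean of n = 5 libraries) in the non-targeting (NT) and *Creb3l1*-shRNA1 lines, for chains over 1%. *Lamb3* takes 77.9% of the laminin beta level in the first line and 49.6% in the second, whereas *Itgb1* and *Lama5* take 89.2% or more of their class in both.

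*Fn1* (fibronectin), *Sparc*, a collagen-binding matrix glycoprotein, and *Bgn*, a small leucine-rich proteoglycan, did not pass, and their spread within each line was wide. *Fn1* gave 84.5, 53.0, 45.2, 44.1 and 33.9 normalised counts in the non-targeting libraries and 34.0, 53.5, 134, 82.4 and 60.0 in the knockdown libraries (log2 difference 0.47, 95% interval −0.46 to 1.40, adjusted p = 0.384). *Sparc* and *Bgn* differed by 0.33 and 0.08 on the log2 scale, with intervals from −0.63 to 1.29 and from −1.05 to 1.21. The same 3 libraries, non-targeting 1 and knockdown 3 and 4, held the 3 highest values of *Fn1*, *Sparc*, *Bgn* and the untested *Nid1*, and also of *Col1a2*, *Col3a1* and *Vim*, but not of *Col1a1*, *Lamb1* or *Vcan*. This was so for 50 of the 14336 tested genes (0.349%). All tested genes were also ranked by the ratio of the mean of these 3 libraries to that of the other 7. *Bgn* ranked 1 (2.60), *Sparc* 7 (2.23) and *Fn1* 8 (2.17). The 3 libraries were picked after the values of these genes were seen, so the ranks follow in part from that choice. They only describe the pattern. The ratio was 2.11 for *Col1a2* and 1.31 for *Col1a1*, the most abundant of the fibroblast markers, which was highest in knockdown 3, 4 and 2.

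The biological coefficient of variation, the spread beyond counting error, was 28.4% for *Fn1*, 30.4% for *Sparc* and 35.1% for *Bgn*, against 5.37% common to all genes. Summed over 10 fibroblast and pericyte markers, the normalised counts were 852 to 1244 in the non-targeting libraries and 999 to 1797 in the knockdown libraries, highest in knockdown 3. Most of this sum was *Col1a1* (means 717 and 935) and *Col1a2* (211 and 282). Of the 10 markers 3 were tested (*Col1a1*, *Col1a2* and *Col3a1*) and none was called (edgeR). *Col1a1* came closest, with a log2 difference of 0.38 (edgeR adjusted p = 0.0322). *Lum* had no read in any library, *Dcn* 1 read in all, and *Pdgfra*, *Pdgfrb*, *Postn*, *Acta2* and *Rgs5* had few. The part of such cells in these values was not tested. Without the 3 libraries, 10 of the 14 members were still called, with *Itga9*, *Sdc3*, *Gpc1* and *Hspg2* (adjusted p = 0.0121) lost, and the differences of *Sparc* and *Bgn* were −0.18 and −0.51. *Vcan*, the large chondroitin sulfate proteoglycan, had 10.0 and 12.3 normalised counts and did not pass.

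**Figure D4:**
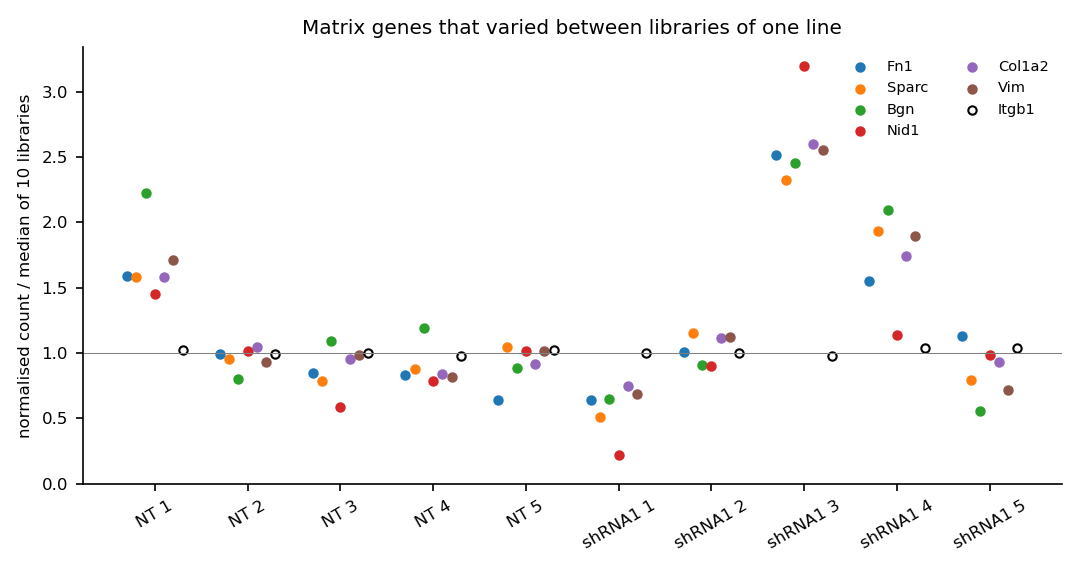
Normalised count of each gene divided by its median over the 10 libraries (y axis), 1 point per library, for *Fn1*, *Sparc*, *Bgn*, *Nid1*, *Col1a2* and *Vim*, with *Itgb1* as open points. Non-targeting (NT) library 1 and *Creb3l1*-shRNA1 libraries 3 and 4 hold the 3 highest values of the first 6 genes, and *Itgb1* stays near 1.

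Markers of other cell types that carry integrins and laminins were checked in the same way. Of 10 endothelial markers, *Cdh5*, *Kdr*, *Emcn* and *Cldn5* had no read, and 3 were tested. *Pecam1* (13.8 and 6.41 normalised counts) and *Plvap* (194 and 127) fell, whereas *Vwf* (304 and 301) differed by −0.01 on the log2 scale. Summed over the 10 endothelial markers, the counts were 495 to 579 in the non-targeting and 429 to 455 in the knockdown libraries. Most of this sum was *Vwf* and *Plvap*. Of the tested markers, *Pecam1* and *Plvap* moved in the same direction as *Lama4* and *Itga2b*, and *Vwf* hardly differed. *Lama5*, also a chain of endothelial basement membranes, and *Hspg2* moved the other way (0.29 and 0.45 on the log2 scale). The part of endothelial cells in those results was not tested. Of 10 leukocyte markers, 5 had no read, *Ptprc* among them, and 1 was tested without a call. Of 8 folliculostellate and stem cell markers, 2 were tested and *Sox2* rose, from a mean of 144 to 179, with overlap between the lines.

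Of the 55 members, 26 were not tested. No read was found in any of the 10 libraries for *Itga2*, *Itga8*, *Itgb6*, *Lama1*, *Lum* and the 4 glypicans named above, which at this depth allows up to 3 counts in all. The others included *Itga1*, *Itga4*, *Itga5*, *Itga11*, *Itgb4*, *Itgb7*, *Lama2*, *Lama3*, *Lamb1*, *Lamc3*, *Sdc4*, *Gpc6*, *Nid1*, *Nid2*, *Dcn* and *Tnc* (tenascin C). *Itgb4*, the partner of *Itga6* in hemidesmosomes, had 26 reads in the non-targeting and 11 in the knockdown libraries. *Lamb1* had the most reads of the untested members, 56 and 39.

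Genes that act with the members were counted in 3 lists. The first held 37 genes of the integrin adhesion complex, with proteins at the inner face of the membrane and surface partners such as tetraspanins and *Bcam*. Of these, 32 were tested and 22 passed (68.8%, against 40.7% of all genes), 10 higher and 12 lower. Many had high counts, such as 2626 on average for *Ilk*, at which small differences passed. The share was not compared with that of genes of like counts. A change of at least 1.5-fold was reached by 3 of the 32 tested, against 7.73% of all genes. *Vcl* (vinculin, which links talin to actin) fell from 2039 to 2249 normalised counts to 1198 to 1334, by 0.79 on the log2 scale (edgeR adjusted p = 1.31e-21). *Bcam*, a cell surface receptor for laminins that contain the *Lama5* chain, fell from 908 ± 36.0 to 557 ± 17.9 (SD, n = 5 each), by 0.71 (edgeR adjusted p = 2.14e-17). *Tns4*, a tensin that binds beta chain tails, rose from a mean of 4.25 to 20.1 normalised counts, with a log2 fold change of 2.20 (edgeR adjusted p = 7.06e-06). The talin genes *Tln1* (0.15) and *Tln2* (−0.31) passed in opposite directions. Of other core components, integrin-linked kinase (*Ilk*, −0.11) and focal adhesion kinase (*Ptk2*, 0.20) passed with log2 fold changes of small size, and kindlin-2 (*Fermt2*, −0.02) did not.

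Of 44 genes that build or modify heparan and chondroitin sulfate, 33 were tested. Of these, 18 passed (54.5%, against 40.7% of all genes), 11 higher and 7 lower. At least 1.5-fold was reached by 5 of the 33, against 7.73% of all genes. Here too the shares were not compared with those of genes of like counts. *Hs6st1*, a 6-O-sulfotransferase of heparan sulfate, gave 2401, 2547, 2534, 2495 and 2441 normalised counts in the non-targeting libraries and 6549, 7662, 7383, 6877 and 6888 in the knockdown libraries. It rose by 1.51 ± 0.03 on the log2 scale (SE, edgeR adjusted p = 1.94e-24), whereas its relative *Hs6st3* fell from 64.7 to 39.9 normalised counts (−0.71, edgeR adjusted p = 1.43e-04). *Extl3*, a glycosyltransferase that starts heparan sulfate chains, rose from 857 to 1455 (0.76, edgeR adjusted p = 2.31e-19). The chain polymerase genes *Ext1* (−0.20) and *Ext2* (−0.21) fell, and the counts of *Ext1* overlapped between the lines. *Ndst4* (3.12 and 17.1 normalised counts) and the chondroitin sulfotransferase gene *Chst3* (13.6 and 24.9) rose by 2.45 and 0.83 on the log2 scale from low counts, and those of *Chst3* overlapped between the lines.

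Dystroglycan is the other main laminin receptor and binds through a sugar chain built in several steps. Of 21 genes for it, its glycosylation and its complex, 17 were tested. Of these, 6 passed (35.3%, against 40.7% of all genes), 4 higher and 2 lower. *Pomgnt2*, which extends the O-mannose that this sugar chain grows from, rose from 1366 ± 42.5 to 3003 ± 68.7 normalised counts (SD, n = 5 each), by 1.14 ± 0.03 on the log2 scale (SE, edgeR adjusted p = 5.43e-29). *Dag1* itself rose by 0.28 (edgeR adjusted p = 0.00580), from 138 to 180.1 up to 179.8 to 199, and *Pomt1*, which adds the first mannose, fell by 0.30 (edgeR adjusted p = 4.10e-06). Without knockdown library 1, or with the correction for GC content and length, 3 genes of this list passed.

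**Figure D5:**
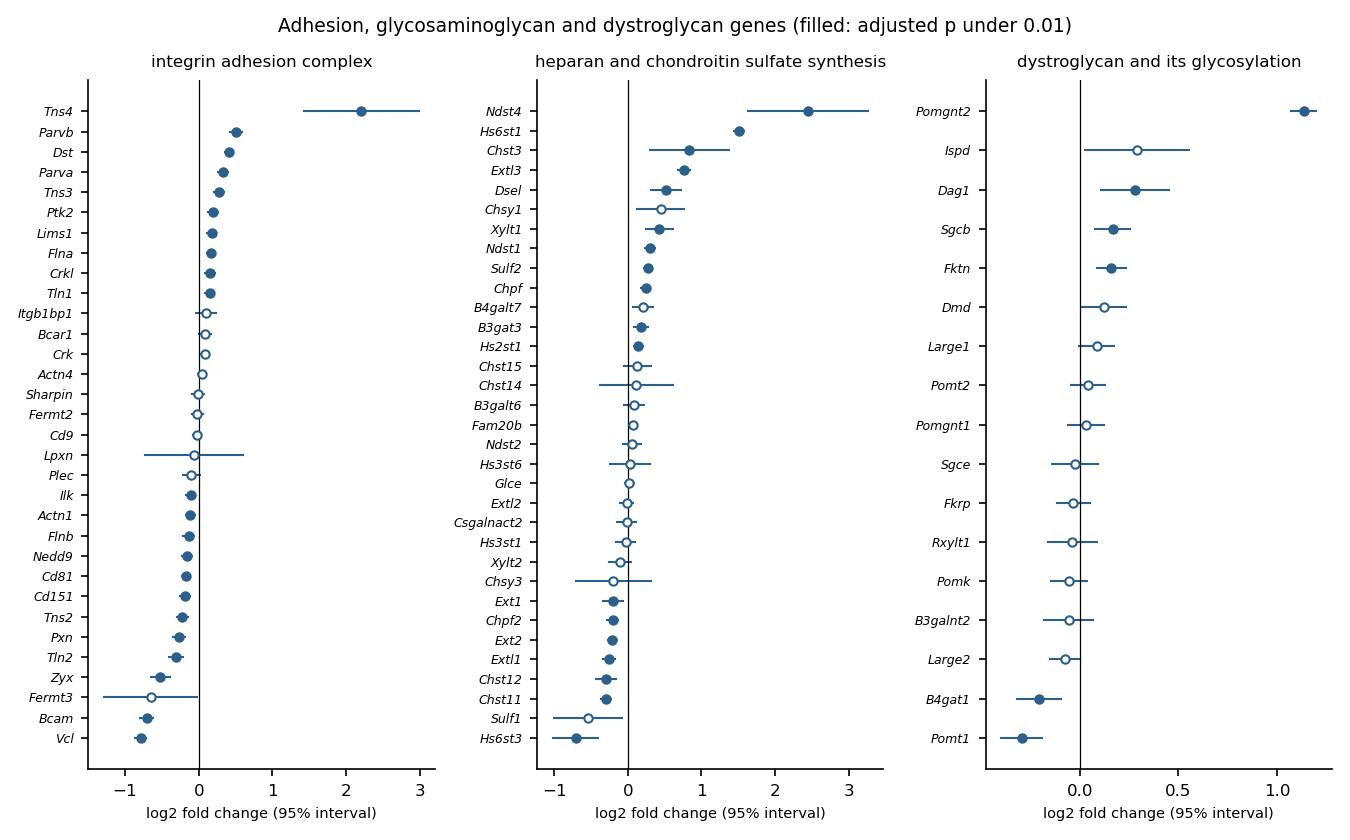
Log2 fold change (x axis, *Creb3l1*-shRNA1 relative to non-targeting, n = 5 libraries per line) with 95% intervals for the tested genes of the 3 lists, filled where the adjusted p was under 0.01. *Vcl* and *Bcam* lie lowest in the adhesion list (−0.79 and −0.71), *Hs6st1* lies at 1.51 and *Pomgnt2* at 1.14.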

How the data were processed

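Poly(A)-selected RNA of 10 AtT20 libraries was sequenced, 5 per stable line. The authors trimmed the paired reads and aligned them to GRCm38 with STAR, and featureCounts gave reads per gene of an Ensembl annotation. They deposited whole-number read counts for each gene and library, without normalisation. How reads matching several genes were treated, and whether strand was used in counting, is not given in the sources used here.

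Lines and replicate numbers came from the labels. In R 4.3.3, edgeR 4.0.16 (filterByExpr, TMM, robust quasi-likelihood fit, no covariate, all 14336 genes) compared the lines. P-values were adjusted over all genes (Benjamini-Hochberg), and 0.01 was the threshold, following the study. DESeq2 1.42.0 was an alternative. The script was tested on simulated data. Intervals are 95% and errors are SE of the fit or SD over libraries. Total counts of 17420698 to 22205107 per library make low counts least precise. Symbols were matched to 53706 of 53801 gene identifiers. Gene positions and exon lengths came from a GENCODE annotation of GRCm38, and promoters from RefSeq.

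The members and lists were chosen with earlier results of these data known. Any tested member could be named. One untested member is not reported here. Values in every library were given for members that passed this threshold, changed at least 1.5-fold and averaged 20 or more normalised counts, and for the most abundant chain or core protein of each main class. *Fn1* and *Hs6st1* were added to these after their values were seen. Of each list, called genes with at least 1.5-fold were named, and other genes of a list were named after their values were seen. Alternatives were DESeq2, RLE factors, library totals, filters on counts, a replicate block, omission of each library, and other thresholds. Fits without robust estimation, with library offsets for transcript GC content and length (splines with 5 degrees of freedom), and without 3 libraries were added after seeing the data. Same-numbered libraries of the lines had correlations of their deviations between −0.065 and 0.040, so the numbers were not taken as pairs.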

Additional observations from a re-analysis of the deposited data

Results flagged for a closer look

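In 4 of 60 groups of 5 libraries (the 30 genes checked are the tested members and *Creb3l1*), 1 library stood apart from the other 4, its gap to the nearest being over 0.71 of the group's range. Chance alone flags about 1 in 20 groups, or 3 of 60. *Itgb8* gave 52.1 normalised counts in knockdown library 3, against 69.6 to 73.9 in the others. In non-targeting library 1, *Sdc2* gave 872 (961 to 985 in the others), *Gpc1* 4193 (3918 to 3961) and *Bgn* 47.3 (17.0 to 25.4). Of the 4, only *Gpc1* was a called member whose call was lost without the library that stood apart. The causes were not tested.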

How the results depend on the processing

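Of the 14 member calls, 14 were kept with RLE size factors, the replicate block, an adjusted p under 0.05 or no robust estimation, and 13 with DESeq2, library totals or at least 10 counts in every library. Leaving out 1 library at a time gave 11 to 14 (11 without knockdown library 1), and no filter on low counts kept all 14 and added *Lama2*. With offsets for GC content and length 12 were kept and *Itgav* was gained. Without non-targeting library 1 and knockdown libraries 3 and 4 there were 10 (*Itga9*, *Sdc3*, *Gpc1* and *Hspg2* lost). The 10 calls never lost in these settings were *Lrrc17*, *Itgb8*, *Sdc2*, *Lama5*, *Lamb3*, *Itga2b*, *Lama4*, *Itgb5*, *Itga3* and *Sdc1*.

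At least 1.5-fold left 6 of 29 tested members and 1108 of 14336 genes. It left 3 of 32 tested genes of the adhesion list, 5 of 33 of the heparan and chondroitin sulfate list and 1 of 17 of the dystroglycan list. The dystroglycan list gave 3 to 6 calls with 1 library left out (3 without knockdown 1) and 3 with the offsets. The median member log2 fold change was 0.0023 to 0.051 with 1 library left out, and with the replicate block it was 0.012, with 14 members and 6013 genes called.

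Signs turned for members whose intervals held 0. With 1 library left out, *Agrn* ranged from −0.041 to 0.032, *Bgn* from −0.24 to 0.40, *Itga10* from −0.15 to 0.056 and *Itga6* from −0.021 to 0.035. *Agrn* was 0.0053 with library totals and 0.036 without the 3 libraries, where *Bgn* was −0.51 and *Sparc* −0.18. With the offsets *Itga6* was −0.0085, *Itgb1* −0.0047 and *Lamc1* −0.012. The causes were not tested. Genes with few reads, such as *Vcan*, limit what this depth can show.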
